A study of Mus musculus with 2 samples.

Results

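The genes described here are 10 targets of the tumour suppressor p53 that act in growth arrest and its feedback control: Cdkn1a, Mdm2, Ccng1, Phlda3, Sesn1, Zmat3, Trp53inp1, Plk2, Btg2 and Gadd45a. They were chosen by name, with earlier results of these data known, and each was read by 1 probe set of the array. Counts of them beside all genes are therefore only a description. All 10 were found among the 19505 genes that carried a single gene symbol. The samples were B16F10 cells, a mouse melanoma cell line that makes melanin. A plasmid that expresses NRF3, or GFP in the control, had been introduced with a vector for puromycin resistance, and stable cells had been selected with the drug. Both populations were then treated with forskolin, an activator of adenylate cyclase that raises cyclic AMP, for 5 days. Every comparison below is therefore NRF3 against GFP under forskolin, and the response to forskolin itself is not measured. Whether a population was 1 clone or a pool, and which promoter drove the plasmid, is not given in the sources used here.

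p53 is a transcription factor that is held at a low level by the ubiquitin ligase MDM2 and accumulates when cells suffer DNA damage or other stress. It binds DNA as a tetramer at paired half-sites and raises the transcription of genes that stop the cell cycle, repair DNA, adjust metabolism or kill the cell. Several of its targets act back on p53 itself, so that the pathway limits its own output. In melanoma p53 is less often mutated than in many other cancers and is often held down by other means, such as loss of CDKN2A or high MDM4. NRF3, the product of Nfe2l3, belongs to the cap'n'collar transcription factors and sits in the endoplasmic reticulum until it is cut free.

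There was 1 array per group. The differences below therefore carry no error and no test, and they describe these 2 RNA samples. In RNA from a whole population, fewer cells expressing a gene and less RNA per cell cannot be told apart. The highest deposited values exceed 16, the most that a 16-bit scanner could give in log2, in 288 rows of the GFP array and 279 of the NRF3 array. The folds below are therefore folds on the deposited scale, which is not the plain log2 of brightness. Array values give no read depth, and the number of arrays limits their precision. The signal for Nfe2l3 was higher in the NRF3 cells, with log2 values of 6.04 in GFP cells and 10.15 in NRF3 cells. These values do not separate RNA of the plasmid from RNA of the cells' own gene. Melanocyte markers lay at 11.67 or more on both arrays, while 0 of 17 measured markers of leukocytes, fibroblasts, endothelium and epithelium reached the floor of 5.89 described next.

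Genes were counted when they differed by 1.5-fold or more, which is 0.58 on the log2 scale. A gene was taken as measurable when its mean over both arrays was at least 5.89, the middle value of the named probe sets, and 9741 genes met this floor. Of these, 23.2% were at least 1.5-fold lower on the NRF3 array and 16.1% at least 1.5-fold higher. Quantile normalization of the 2 arrays shifted the median of these genes by 0.10 and made the split nearly even, with 19.3% lower and 20.1% higher. The arrays also hold 5222 control rows whose names contain neg. Their upper quartiles were 7.52 in GFP and 7.85 in NRF3 cells, and a value under them is called dim below. Some of these rows were bright, reaching 18.81 and 19.46, and so do not measure background alone. A further 23 control rows, named for background by GC content, reached at most 7.11 and 8.16.

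Most of the p53 targets were lower in the NRF3 cells. All 10 reached the floor. Of them, 7 were at least 1.5-fold lower, or 70.0%, beside the 23.2% of all genes. Another 2 of the 10 were at least 1.5-fold higher, beside 16.1% of all genes, and Gadd45a lay within the rule. Over the 10 genes NRF3 minus GFP had a median of -0.79 and over all 9741 one of -0.08. The lower genes covered a range from 1.56-fold for Zmat3 to 3.83-fold for Phlda3. At 2-fold, 2 of the 10 were lower, beside 10.7% of all genes, and 2 were higher, beside 6.35%.

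**Figure D1:**
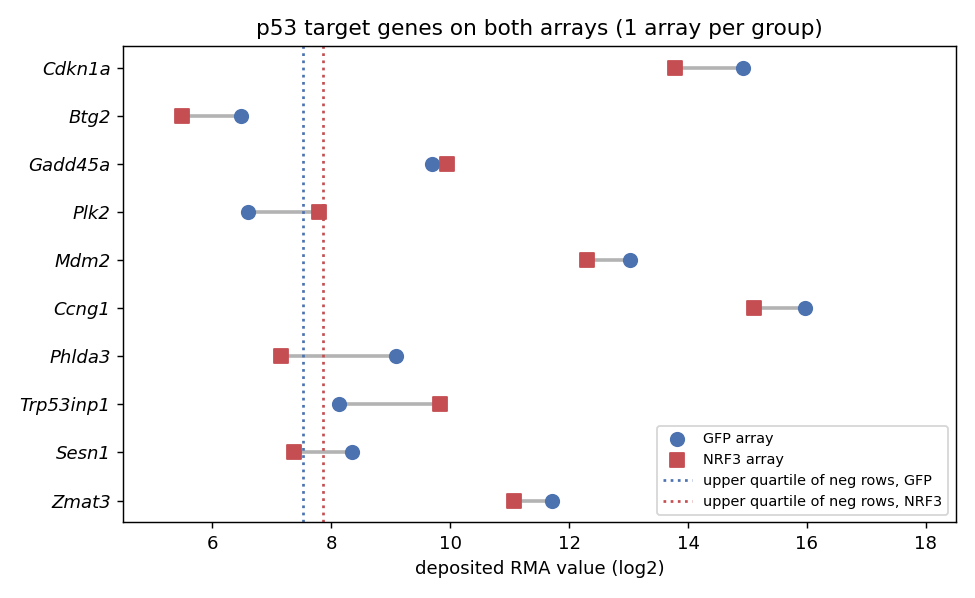
Deposited log2 RMA value (x axis) of each of the 10 p53 target genes on the GFP array (blue circles) and the NRF3 array (red squares), 1 array per group. Dotted lines mark the upper quartiles of the control rows named neg, 7.52 and 7.85. In 7 genes the NRF3 value lies to the left of the GFP value, and in Trp53inp1, Plk2 and Gadd45a to the right.

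The sequences upstream of the genes differ in the sites they hold. Shown are 6 windows with a match, 4 with a p53 half-site and 2 with a cAMP response element, as examples of each kind of site beside the values that follow. RefSeq promoter windows (build GRCm38.p6) were matched by symbol for 8 of the 10 genes, with 2 windows each for Cdkn1a and Sesn1. Zmat3 and Trp53inp1 had no entry. The 250 bases before each start were searched on both strands for the p53 half-site, a degenerate motif of 10 letters, for the cAMP response element TGACGTCA and for the antioxidant response element core TGACNNNGC, the kind of site that NRF3 binds with small MAF proteins. A p53 half-site was found for 5 members and in 7.13% of all 32851 windows. The cAMP response element was found for Btg2 and Plk2 and in 1.55% of all windows. The antioxidant core was found in none of the members' windows and in 10.2% of all. No match overlapped a match of another motif. Capitals mark the matches in the 60 bases shown of each window, all of them upstream of the start.
Cdkn1a, chr17:29090892-29090951, plus strand: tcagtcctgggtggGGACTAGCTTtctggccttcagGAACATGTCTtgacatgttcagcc
Mdm2, chr10:117710910-117710969, minus strand: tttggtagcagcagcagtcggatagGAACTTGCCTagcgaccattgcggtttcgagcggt
Ccng1, chr11:40755437-40755496, minus strand: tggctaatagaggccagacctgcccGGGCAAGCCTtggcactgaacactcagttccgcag
Gadd45a, chr6:67037413-67037472, minus strand: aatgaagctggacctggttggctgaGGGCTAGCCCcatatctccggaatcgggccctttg
Btg2, chr1:134079288-134079347, minus strand: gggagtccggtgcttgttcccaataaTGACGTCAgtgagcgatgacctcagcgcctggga
Plk2, chr13:110394956-110395015, plus strand: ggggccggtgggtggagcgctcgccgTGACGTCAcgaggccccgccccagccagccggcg

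Of the 2 Cdkn1a windows, 1 held 2 p53 half-sites, which began 73 and 51 bases before its start. The other Cdkn1a window held no match. Half-sites as close as this, at most 13 bases apart, were found in 21 of the 32851 windows, or 0.0639%. In the printed Cdkn1a window, the 10 bases directly after the second match miss the motif only in their first letter. They were therefore neither marked nor counted. The half-site of Mdm2 began 186 bases before the start, that of Ccng1 185 bases before it and that of Gadd45a 40 bases before it. The fifth gene with a half-site was Sesn1, in the window of its second start, and is not printed. The cAMP response element began 166 bases before the start of Btg2 and 62 bases before that of Plk2. Phlda3 had no match in its window, which says only that these letters are absent there. These matches are a description of the sequence and show no binding.

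Among the genes that halt the cycle directly, Cdkn1a was lower and well above background. It encodes p21, the inhibitor of cyclin-dependent kinases through which p53 stops cells in G1. Its log2 value was 14.92 in GFP cells and 13.78 in NRF3 cells, which is 2.21-fold lower. Both values lay far above the upper quartiles of the control rows, of which 0.555% and 0.919% reached them. The difference of -1.14 ranked 780 from the lowest among the 9741 genes, so about 8.01% of genes were as low or lower. Of the 2 Cdkn1a windows, 1 holds the 2 half-sites printed above.

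Btg2, an antiproliferative gene whose protein binds the deadenylase complex that shortens mRNA tails, had a log2 value of 6.49 in GFP cells and 5.49 in NRF3 cells. The difference was -0.998, just short of 2-fold. Both values were dim, and 43.0% and 67.7% of the control rows reached them, so Btg2 cannot be told from background on either array. Gadd45a encodes a stress sensor that binds PCNA and the mitotic kinase CDK1 and takes part in the G2 checkpoint. Its log2 values were 9.70 in GFP cells and 9.95 in NRF3 cells, which differ by 0.26. Gadd45a was therefore within the size rule, on the opposite side of 0 from Cdkn1a.

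Plk2, a polo-like kinase that acts in centriole duplication and is induced by p53 and by growth signals, went the other way from Cdkn1a. GFP cells had a log2 value of 6.60 and NRF3 cells one of 7.79, higher by 1.19. Plk2 was dim on both arrays, with 40.7% and 25.8% of the control rows reaching its values, so the size of the difference may depend on background. The control rows themselves were higher on the NRF3 array, with a median difference of 0.27, and 35.6% of them were at least 1.5-fold higher. The part of this background in the Plk2 value was not tested. Plk2 and Btg2, the 2 genes with a cAMP response element, were both dim on both arrays, so their directions are not compared.

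Of the genes that act back on p53 or on survival signals, Mdm2, Ccng1 and Phlda3 were lower and Trp53inp1 was higher. Mdm2, the ubiquitin ligase that degrades p53 and is itself a p53 target, was at 13.02 in GFP cells against 12.31 in NRF3 cells. The difference was -0.71, or 1.64-fold. Ccng1 encodes cyclin G1, which recruits protein phosphatase 2A to MDM2. Its values were 15.97 and 15.11, a difference of -0.86 or 1.82-fold, and 0.345% and 0.574% of the control rows reached them. For Mdm2 these shares were 1.09% and 1.86%. Both genes were well above the upper quartiles of the control rows on both arrays, so their differences do not rest on dim values.

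Phlda3 encodes a small pleckstrin homology domain protein that competes with AKT for membrane lipids and so restrains AKT. It had the lowest difference of the 10, with log2 values of 9.09 in GFP cells and 7.15 in NRF3 cells. The difference of -1.94 ranked 182 from the lowest among the 9741 genes. The NRF3 value was dim, and 35.9% of the control rows reached it, so the size of the fold may depend on background. On the GFP array 8.66% of the control rows reached the value.

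Trp53inp1 encodes a nuclear protein that promotes p53 phosphorylation and also binds LC3 family proteins in autophagy. It was higher in the NRF3 cells, with log2 values of 8.12 in GFP cells and 9.84 there. The difference of 1.71, or 3.28-fold, ranked 113 from the highest among the 9741 genes. Neither value was dim, although 17.2% of the control rows reached the GFP value and 7.53% the NRF3 value. Trp53inp1 thus stood opposite to Mdm2, Ccng1 and Phlda3.

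The remaining members act in metabolism and RNA processing. Sesn1 encodes sestrin 1, which restrains the growth kinase complex mTORC1 when amino acids are scarce. GFP cells had a log2 value of 8.34 and NRF3 cells a dim one of 7.37, so Sesn1 differed by -0.97. Zmat3 encodes a zinc finger protein that binds RNA and regulates splicing. Its log2 values were 11.72 in GFP cells and 11.08 in NRF3 cells, which differ by -0.64. Zmat3 passed the 1.5-fold rule narrowly, and it no longer did so after quantile normalization, at -0.56, or after subtraction of the trend on level, at -0.58.

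Lower members were found at each level of signal. Of the 3 members with a mean log2 value of 12 or more, Cdkn1a, Ccng1 and Mdm2, 3 were at least 1.5-fold lower, beside 20.1% of the 1888 genes in that range. Between 9 and 12, Zmat3 was lower and Gadd45a was not, beside 23.5% of 3753 genes. Below 9 lay 5 members, of which 3 were lower, beside 24.4% of 4100 genes, and 2 were higher, beside 15.0%. With the 4 members that were dim on an array left out, 4 of 6 were lower and 1 was higher, and no share of all genes was computed. The 4 lower ones were Cdkn1a, Ccng1, Mdm2 and Zmat3. The same 6 members also lay above every one of the 23 background controls on both arrays.

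**Figure D2:**
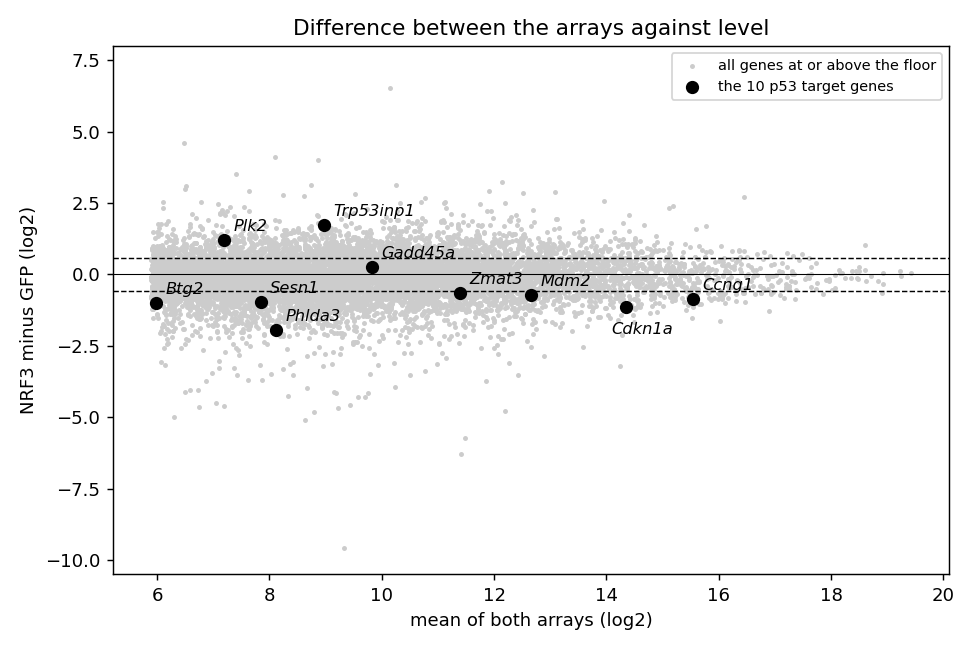
Difference of NRF3 minus GFP in log2 (y axis) against the mean log2 value of both arrays (x axis) for the 9741 genes at or above the floor (grey) and the 10 p53 target genes (black). Dashed lines mark 1.5-fold. The 3 members with a mean of 12 or more all lie below the lower line, and Plk2 and Trp53inp1 lie above the upper one.

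Phlda3 and Btg2 lie on chromosome 1, where lower values were common. Of 528 chromosome 1 genes at or above the floor, 44.5% were at least 1.5-fold lower and 4.55% as much higher, with a median of -0.52. The 50 genes nearest to Phlda3 in gene order had a median difference of -0.74, and those nearest to Btg2 one of -0.69. Relative to its neighbours Phlda3 was at -1.19 and Btg2 at -0.31, so Btg2 then lay within the size rule. The other 8 members are spread over 7 chromosomes.

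Outside chromosome 1 the neighbours differed less than the members. For Cdkn1a the neighbours had a median of -0.33, which left -0.81. The medians around Ccng1, at 0.02, Sesn1, at -0.08, and Mdm2, at -0.12, were close to 0. Zmat3 lay among genes that were higher, with a median of 0.35, and was at -0.99 relative to them. Trp53inp1 was at 1.85 and Plk2 at 0.93 relative to their neighbours. With neighbours subtracted, 6 members were lower and 2 higher by the size rule. With both chromosome 1 genes left out, 5 of 8 were lower and 2 higher. For neither setting was the share of all genes computed, so these counts have none to stand beside.

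**Figure D3:**
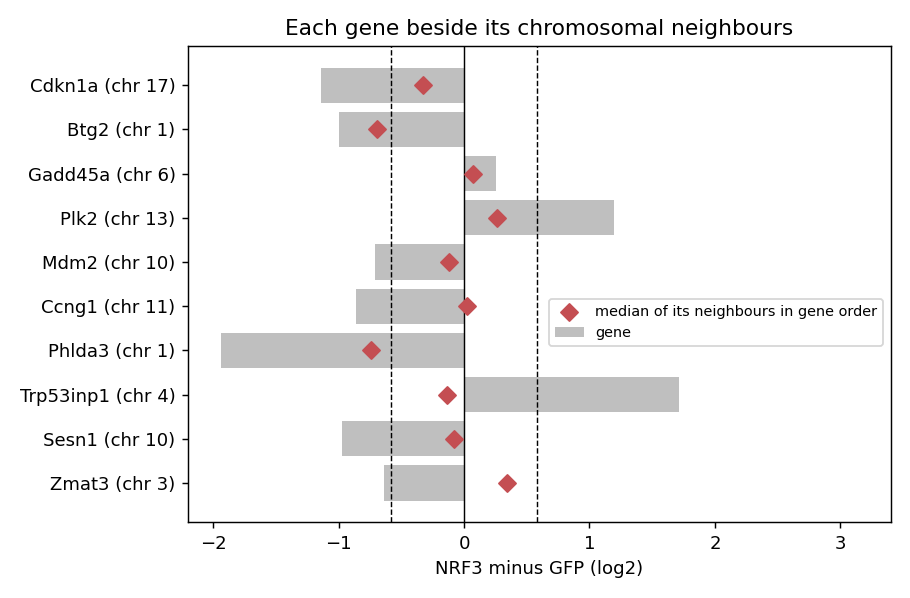
Difference of NRF3 minus GFP in log2 (x axis) for each p53 target gene (grey bars) and the median difference of up to 50 nearest genes in gene order (red diamonds), with the chromosome in parentheses. Dashed lines mark 1.5-fold. The neighbours of Phlda3 and Btg2 lie beyond the lower line, at -0.74 and -0.69, and those of the other 8 genes lie between the lines.

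The genes that control p53 were mixed. Trp53 itself was not analysed here. Of 17 other regulators with a named probe set, 4 were at least 1.5-fold lower and 1 was higher, and 12 lay within the rule. Of all named genes, with or without the floor, 16.3% were as much lower and 15.0% as much higher. Over the 16 regulators at or above the floor, the same counts of 4 lower and 1 higher stood beside 23.2% and 16.1%. The median difference was -0.29 over the 17 and -0.36 over the 16. Mdm4, which binds and inhibits p53 beside MDM2 and lies on chromosome 1, had log2 values of 11.09 in GFP cells and 10.19 in NRF3 cells, which differ by -0.90. Its neighbours had a median of -0.68. The checkpoint kinase gene Chek1 differed by -0.97 and Hipk2, a kinase that phosphorylates p53, by -0.94. Rchy1, a ubiquitin ligase that can degrade p53, was higher by 0.96. Cdkn2a, whose ARF product blocks MDM2, lay at 2.84 and 2.77, below the floor on both arrays.

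Of 12 p53 targets of apoptosis measured, 2 were lower, beside 16.3% of all named genes, and 0 were higher, beside 15.0%. Over the 7 at or above the floor the same counts stood beside 23.2% and 16.1%. With neighbours subtracted 1 was lower and 1 higher, and for that setting no share of all genes was computed. The median difference was -0.01 over the 12 and 0.01 over the 7. Siva1, a death receptor adaptor gene, differed by -0.97 but by -0.22 relative to its neighbours, whose median was -0.75. Pidd1, which encodes the scaffold of the PIDDosome, differed by -0.77, with dim values on both arrays. Tnfrsf10b, the mouse TRAIL death receptor gene, lay at 9.57 and 9.58, a difference of 0.01. The receptor gene Fas lay at 4.76 and 4.59, and Bbc3, which encodes PUMA, at 5.63 and 5.60. Fas and Bbc3 were thus below the floor on both arrays.

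Targets in DNA repair and metabolism gave 2 lower and 0 higher of 10 measured, beside 16.3% and 15.0% of all named genes, with a median of -0.01. Over the 9 at or above the floor the same counts stood beside 23.2% and 16.1%, and the median was -0.28. After quantile normalization 1 of these 9 was lower, beside 19.3% of all genes, and 2 were higher, beside 20.1%. The same counts after subtraction of the trend on level stood beside 20.5% and 18.6%. The counts were also the same after subtraction of neighbours, where no share of all genes was computed. Ddb2, a damage recognition gene of nucleotide excision repair, had dim log2 values of 7.11 in GFP cells and 5.48 in NRF3 cells, a difference of -1.63. Rrm2b, a p53-induced subunit of ribonucleotide reductase, differed by -0.64. Xpc, another excision repair gene, lay on the other side at 0.58, just under the size rule.

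The closest relatives of the members, many of them not known as p53 targets, were looked at as well. Of 18 measured, 6 lay below the floor. Of the 18, 4 were lower and 4 higher, beside 16.3% and 15.0% of all named genes, and the median was 0.15. Over the 12 at or above the floor 3 were lower and 2 higher, beside 23.2% and 16.1%, and the median was -0.20. Ccng2, the relative of Ccng1, had log2 values of 10.65 in GFP cells and 11.84 in NRF3 cells, higher by 1.19. Btg1, the relative of Btg2, was at 9.77 and 10.86, higher by 1.10. Ccng1 and Ccng2 thus differed in opposite directions. Btg2 was too dim to be set against Btg1. The p21 relative Cdkn1b, which encodes p27, differed by 0.30, and Cdkn1c lay below the floor.

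Trp53inp2, the autophagy-linked relative of Trp53inp1, was lower by 2.08-fold, from 11.62 to 10.56, again opposite to its relative. Phlda1 differed by 0.14. Phlda2 differed by -2.80, from 6.41 to 3.61, with a mean below the floor. Sesn2 and Sesn3 were within the rule, at -0.28 and 0.52. The polo-like kinase gene Plk1, which drives mitosis, was at -0.63, Plk3 at -0.55 and Plk4, the kinase of centriole duplication, at -0.12. Gadd45b and Gadd45g lay below the floor on both arrays.

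A list of cell cycle genes also held more lower than higher genes, in the same direction as Cdkn1a. The list held cyclins, CDKs, their phosphatases and kinase Wee1, Pcna, and genes of the RB, E2F and LIN families. Of 24 measured, 13 were at least 1.5-fold lower and 3 higher, with a median of -0.60. All 24 reached the floor, so the shares to set beside these counts are the 23.2% and 16.1% above. E2f2, an activator of S-phase genes, had log2 values of 10.11 in GFP cells and a dim 7.25 in NRF3 cells. Ccnd3, which encodes cyclin D3, differed by -1.56 and the phosphatase gene Cdc25b by -1.53, with a dim NRF3 value of 7.61. E2f1 differed by -1.17. The 3 higher genes were Rbl2, which encodes the RB relative p130, at 1.51, the repressor gene E2f4 at 0.90 and Lin54 at 0.75. Rbl1, which encodes the other RB relative p107, went the other way at -1.05, and Lin9 lay at -0.56. Rbl2 and E2f4 lie on chromosome 8 among genes with median differences of 0.61 and 0.67, and relative to these E2f4 was at 0.23. Several of the lower genes were close to the rule. After quantile normalization 8 of the 24 were lower, beside 19.3% of all genes, and 3 were higher, beside 20.1%.

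**Figure D4:**
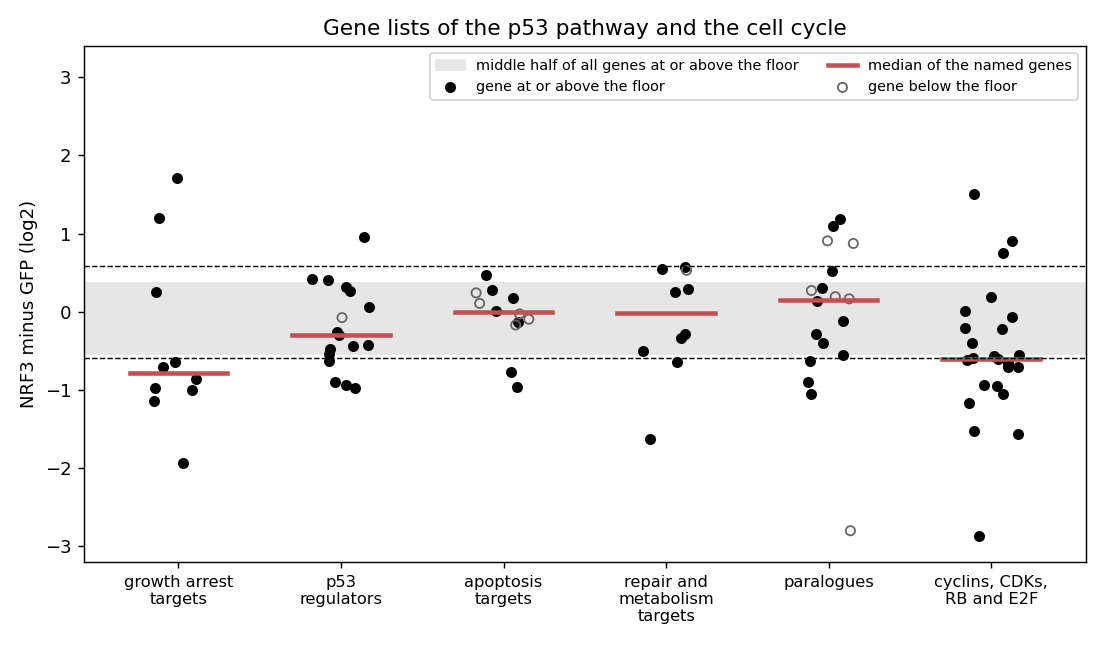
Difference of NRF3 minus GFP in log2 (y axis) for the genes of 6 lists, 1 point per gene, filled at or above the floor and open below it. Red bars are medians over all measured genes of a list, the grey band spans the quartiles of all genes at or above the floor, -0.54 and 0.37, and dashed lines mark 1.5-fold. The growth arrest targets and the cell cycle genes have medians of -0.79 and -0.60, below the band, and the other medians lie inside it.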

How the data were processed

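Total RNA of 2 samples was read on Affymetrix arrays, 1 per group. The deposited values are log2 expression per probe set, made by the authors with Affymetrix Expression Console and RMA, per the submitters' processing notes; their versions, the background settings and the array's build are not stated there. This method brings arrays to a common scale. The table holds 28846 rows.

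Rows were joined to the platform's probe and gene table (19572 probe sets with 1 symbol). Where a gene had several, the one with the highest mean was kept. Differences are NRF3 minus GFP on the log2 scale, with no test. Named were the 10 members, up to 3 highest and 3 lowest genes past the rule in each other list, Mdm4, Cdkn2a, Nfe2l3 and the paralogues. Trp53 was also planned to be named but was not analysed. Other genes were chosen after their values were seen, as were the 2 alternatives on neighbours and dim members. The members and lists were chosen with earlier results of these data known. Of the 89 entries of the 5 other lists, those without a named probe set were not analysed here. Gene order came from RefSeq (GRCm38.p6). Python 3.11.15, pandas 2.3.3 and statsmodels 0.14.6 (lowess, span 0.3) were used. Only median centring and the lowess step were tested on simulated data.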

Additional observations from a re-analysis of the deposited data

How the results depend on the processing

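No paired analysis was possible because each group has 1 array. Averaging probe sets, median centring, quantile normalization, subtraction of the trend on level, no floor, a floor on the brighter value, the loss of the chromosome 1 members and subtraction of neighbours left 5 to 7 members lower and 2 higher, and the median between -0.67 and -0.79. No share of all genes was computed without the chromosome 1 members or after subtraction of neighbours. In the other settings 16.3% to 23.6% of all genes were lower and 15.0% to 20.1% higher. A stricter floor, the 75th percentile, left 5 members, of which 4 were lower and 0 higher, beside 21.9% and 17.0% of all genes. At 2-fold 2 were lower, beside 10.7%, and 2 higher, beside 6.35%. Without the dim members 4 were lower and 1 higher of 6, and no share of all genes was computed. Of 50 differences of single members recomputed under 5 settings, 47 stayed on their side of 1.5-fold and 0 changed sign beyond it. The 3 that crossed were Zmat3 under 2 scalings and Btg2 after subtraction of neighbours. Of 146 other list and background values 26 moved. The nearness of 4 members to the control rows limits what their folds show, and without replicates the spread between cultures is unknown.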
